A study of Homo sapiens with 6 samples.

Results

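Aminoacyl-tRNA synthetases, the enzymes that charge tRNAs with amino acids, were followed at the mRNA level in SH-SY5Y cells, a human neuroblastoma line. The members were 36 genes of the 61860 in the deposited table, taken by symbol: 18 whose product works in the cytosol, 2 (GARS1 and KARS1) whose single gene supplies both the cytosol and the mitochondria, and 16 whose product works in the mitochondria. All 36 were found in it. The cells of both groups had been differentiated with all-trans retinoic acid and made insulin resistant (IR) with insulin at 100 nM and D-glucose at 30 mM for 24 h. The IR control group (3 libraries) was left at that, and the IR+Oligonol group (3 libraries) also received Oligonol, a polyphenol preparation from lychee fruit, at 500 ng/mL for 24 h. The sequencing libraries hold total RNA, prepared with a kit that keeps strand. No group without insulin resistance was used, so values compare Oligonol with IR alone and do not describe IR itself. In such bulk RNA, fewer cells of a type and less RNA per cell cannot be told apart.

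Each synthetase recognises an amino acid and its tRNAs, spends ATP to activate the amino acid and transfers it to the tRNA end, and so sets the accuracy of translation. Enzymes for the cytosol and for the mitochondria are mostly separate nuclear genes, and the mitochondrial ones serve the translation of respiratory chain subunits. Several cytosolic enzymes sit together in the multisynthetase complex around the scaffold proteins AIMP1, AIMP2 and EEF1E1. Many cytosolic genes are known targets of ATF4, a transcription factor made when amino acids run short or the eIF2alpha kinases are active. Neurons are sensitive to these enzymes: inherited changes in GARS1, YARS1, AARS1 and HARS1 are known to cause peripheral neuropathy.

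ATF4 acts on these genes through a composite C/EBP-ATF element, searched here as TGATGNAA on both strands from 250 bases before to 50 bases after the annotated start. RefSeq (build GRCh38.p14) gave such a promoter for 30 of the 36 members. AARS2, LARS1, TARS3, VARS1, VARS2 and YARS1 had no entry. The element was found in 7 of the 30 (23.3%), against 3.67% of all 27305 promoters of that length. Of the 13 members listed as known ATF4 targets, 10 had a promoter entry and 6 of these held the element, and of the other 20 promoters 1 did, that of the mitochondrial enzyme YARS2. The 7 windows of 30 bases are shown because the element links the genes to a known regulator. They are written 5′ to 3′ on the strand of the gene with the element in capitals, where TTGCATCA is TGATGCAA read on the opposite strand.
AARS1: ccaccttttctcgcagTTGCATCAgccaag
CARS1: acttccggggcggcggTTGCATCAgattct
IARS1: ccgcattttcagcgcgTTGCATCAcctccg
MARS1: gggaggccggttccggTTGCATCAgcgagg
NARS1: tcagatctacgctctcTGATGCAAcgccgg
TARS1: ttagggcgcctttcgaTTGCATCAgctggt
YARS2: agcagatccacactgcTGATGGAAaaatta
The windows lie at chr16:70289680-70289709 (AARS1, minus strand), chr11:3057412-3057441 (CARS1, minus), chr9:92293697-92293726 (IARS1, minus), chr12:57488048-57488077 (MARS1, plus), chr18:57621809-57621838 (NARS1, minus), chr5:33440951-33440980 (TARS1, plus) and chr12:32756081-32756110 (YARS2, minus). The element began 187 and 197 bases before the RefSeq start in AARS1 and YARS2, and near that start in the other 5. These distances depend on the start chosen, and the deposited gene spans can begin elsewhere. That of MARS1 begins at 57475445, upstream of its window, and that of AARS1 at 70289707, within its window. A match of letters does not show binding.

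Estimated counts summed to between 19457923 and 32209583 per library. The libraries of the groups also differed in composition. The share of estimated counts on protein-coding genes was 6.60% ± 0.313 (SD, n = 3) for IR control and 11.4% ± 1.22 for IR+Oligonol, and the GC content at the middle of those counts was 56.1% ± 0.174 and 52.3% ± 1.61 (exact permutation p = 0.1 for each, 2-sided, the smallest that 3 against 3 can give). Oligonol library 2, at 54.1%, was nearest to the controls. Fold changes are therefore also given after each library's trend with GC was removed. Nothing in the labels says that the replicates are separate cultures, and the p-values then cover only the spread among these libraries, which may be technical.

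Levels are given as CPM, the count scaled to library size after TMM normalization. The deposited estimated counts behaved as abundances per transcript length in a fit that is no independent check. The trend with GC content was not removed from these levels. Orders and spans between genes are thus descriptive and hold with that trend in place. In controls the mean levels of the 36 genes spanned 146-fold. QARS1 (glutaminyl enzyme, 26.8 ± 2.90 CPM), FARSA (the alpha subunit of the phenylalanyl enzyme, 24.4 ± 2.15), MARS1 (methionyl, 22.7 ± 4.78) and VARS1 (valyl, 13.9 ± 1.89) stood above 10 CPM and held 46.9% of the summed level of all members. Another 27 genes lay between 1 and 10 CPM. PARS2, WARS2, TARS3, MARS2 and FARSB lay under 1 CPM, and FARSB, the beta subunit of the phenylalanyl enzyme, was lowest at 0.183 ± 0.00998. The median level was 3.96 CPM for the cytosolic and dual-compartment genes and 2.17 for the mitochondrial ones. With Oligonol the 4 highest genes of the controls held 28.7% of the summed level. These 4, with GC contents of 53.7 to 61.8%, were picked by their control level, so the shares are not an even comparison. Behind the lowest values, WARS2 rested on roughly 15.6 to 35.1 reads per library and FARSB on roughly 33.9 to 140 reads, from fitted read values and median transcript lengths.

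**Figure D1:**
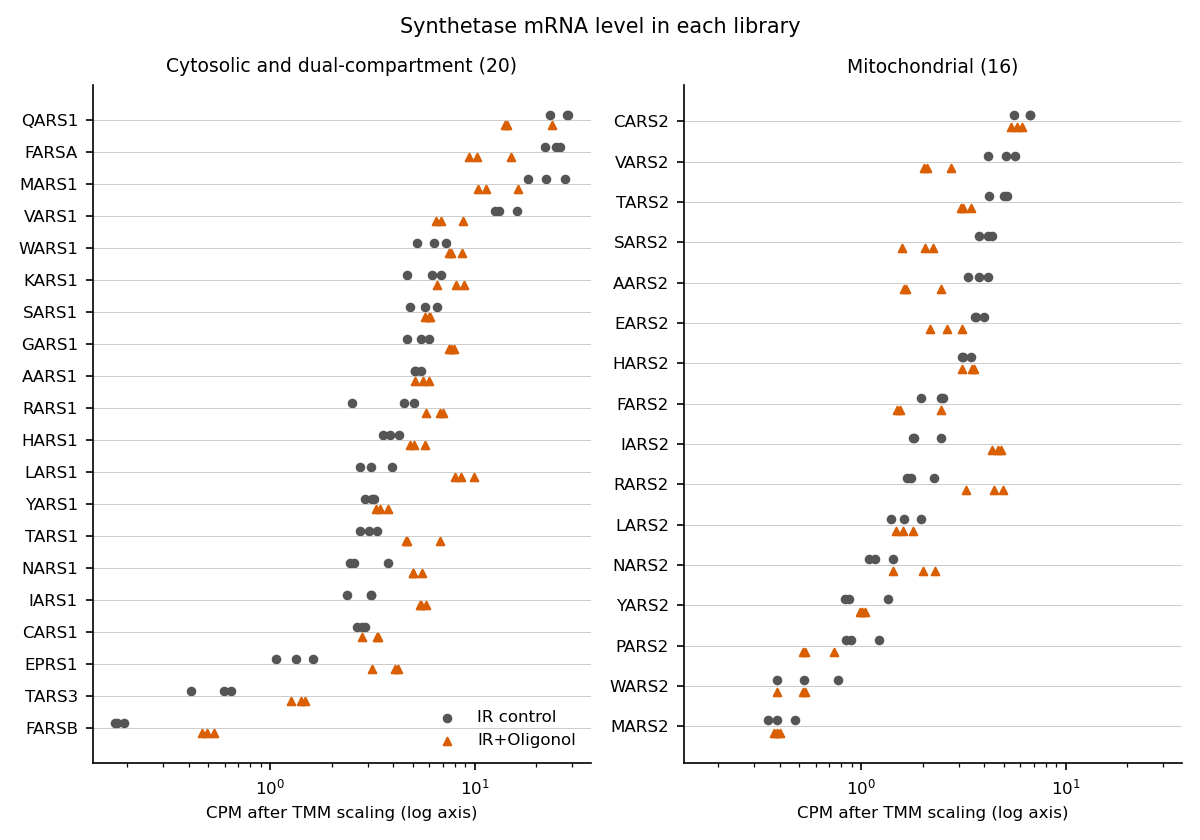
Level of each synthetase in the 3 IR control libraries (grey circles) and the 3 IR+Oligonol libraries (orange triangles), as CPM after TMM scaling on a log axis, ordered by the control mean. Of the 4 genes above 10 CPM in controls, FARSA, MARS1 and VARS1 sit lower in every Oligonol library, and the groups overlap in QARS1. LARS1, IARS1, EPRS1, TARS3 and FARSB sit higher.

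With Oligonol, synthetase mRNAs moved in both directions. By edgeR's quasi-likelihood test with Benjamini-Hochberg adjustment over all 16574 tested genes, 10 of the 36 rose (EPRS1, LARS1, FARSB, TARS3, IARS2, RARS2, IARS1, NARS1, TARS1 and GARS1) and 7 fell (VARS2, FARSA, SARS2, AARS2, VARS1, MARS1 and TARS2). All 36 passed the filter on low counts. Of all tested genes 26% rose and 23% fell, and of the 11728 protein-coding ones 27.1% and 27.5%, so the members' shares are near the background and are no result about the family. The libraries of the groups did not overlap in 15 members that were higher and 9 that were lower, against 33.9% and 28.9% of all tested genes. The members' median log2 fold change was 0.07, against 0.15 over all tested genes. With the GC trend removed 1 of the 36 passed, LARS1, and none fell, against 2.88% and 2.57% of 16200 genes, or 2.27% and 2.14% of protein-coding ones. At an unadjusted p under 0.05 there were then 8 members. When library totals alone set the scale, all 36 values were positive, 28 passed as higher and the median was 1.46 (1.53 over all genes), so every direction here is relative to TMM scaling. Without IR control 3 only EPRS1 and LARS1 still passed, in a fit where 582 genes rose and 200 fell of 20071 tested.

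**Figure D2:**
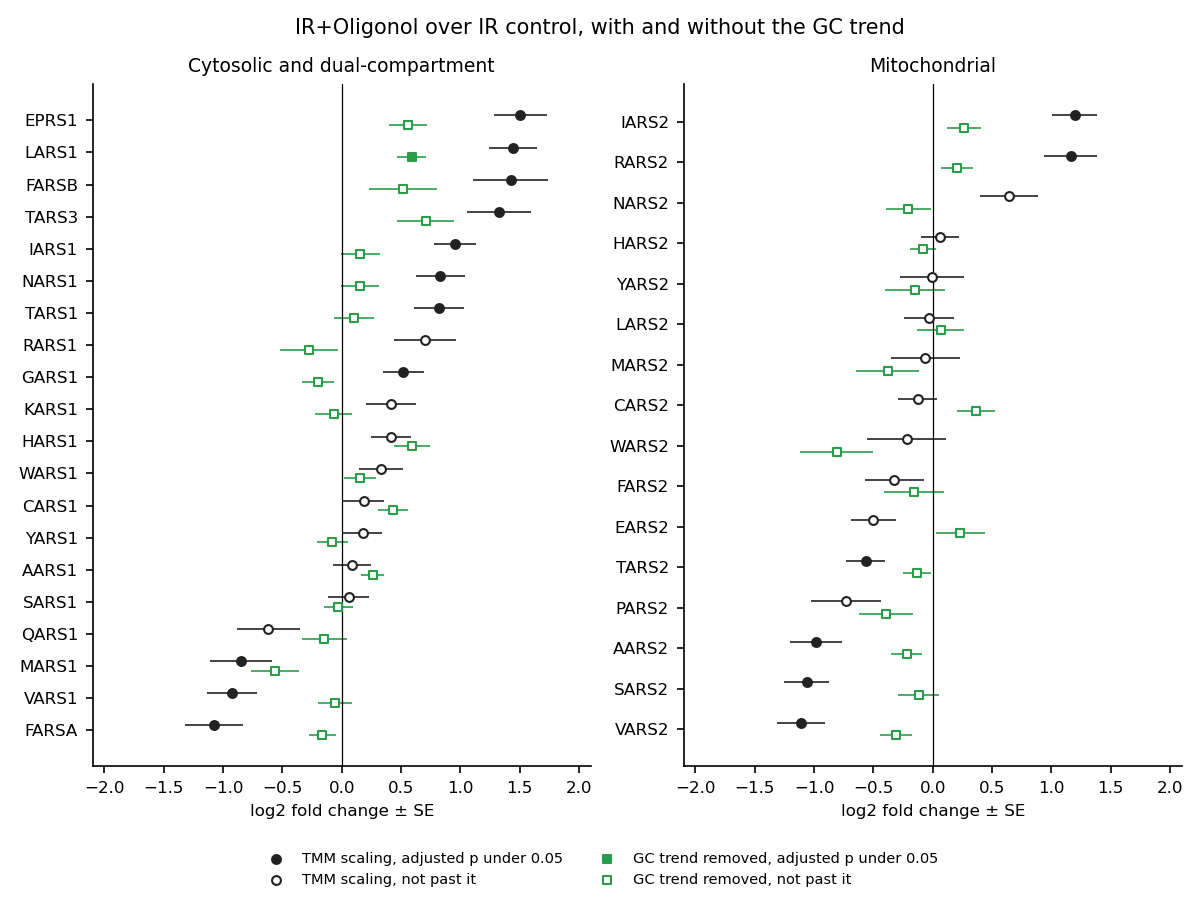
Log2 fold change with its standard error for each synthetase, IR+Oligonol over IR control, under TMM scaling (black circles) and with each library's GC trend removed (green squares). Filled symbols have an adjusted p under 0.05. Under TMM scaling 17 symbols are filled, and with the GC trend removed only that of LARS1.

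Leucyl-tRNA synthetase gave the clearest rise. LARS1 (chromosome 5, 146110566 to 146182696, GRCh38.p13) was at 3.10, 3.95 and 2.75 CPM in the control libraries and at 9.94, 8.01 and 8.59 CPM with Oligonol. Every Oligonol library lay well above the highest control. Its log2 fold change was 1.44 (SE 0.20, edgeR adjusted p = 0.00620) at a transcript GC of 42.5%, and 0.59 (adjusted p = 0.0430) with the GC trend removed. In the 7 other fits without the GC trend (a replicate block, or a library left out) it stayed between 0.53 and 0.66 with adjusted p of 0.0789 to 0.160. LARS1 is known also as a leucine sensor upstream of mTORC1. EPRS1 (chromosome 1, 219968600 to 220046530), which charges glutamate and proline from 1 polypeptide, was at 1.07, 1.62 and 1.34 CPM in controls and at 4.22, 3.15 and 4.06 CPM with Oligonol. Its groups did not overlap, and its log2 fold change of 1.51 (SE 0.22, adjusted p = 0.00629) became 0.56 (adjusted p = 0.0834) without the GC trend. LARS1 and EPRS1 were the 2 members called in all 15 alternatives that kept the GC trend.

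Both belong to the multisynthetase complex, whose 7 measured enzymes did not move together. LARS1, EPRS1 and IARS1 rose and MARS1 fell. RARS1, KARS1 and QARS1 did not pass. RARS1, the arginyl enzyme, was 0.70 (adjusted p = 0.0544) at a GC of 40.6% and -0.28 without the GC trend, and QARS1 was -0.62 (adjusted p = 0.0863) at 55.6% and -0.15 without it. IARS1, the isoleucyl enzyme (chromosome 9, 92210207 to 92293854), was at 2.38, 3.11 and 3.10 CPM in controls and between 5.40 and 5.76 with Oligonol (log2 fold change 0.95, SE 0.18, adjusted p = 0.00833, and 0.16 without the GC trend). MARS1 (chromosome 12, 57475445 to 57517569) was at 27.7, 18.2 and 22.3 CPM in controls and at 10.4, 16.2 and 11.3 with Oligonol, so the highest Oligonol library lay just under the lowest control (log2 fold change -0.85, SE 0.26, adjusted p = 0.0291). Its value without the GC trend was -0.56 (adjusted p = 0.133), at a transcript GC of 53.7%. It overlaps DDIT3 on the opposite strand by 982 bases, and the labels do not say whether the counting used strand. The ratio of LARS1 to MARS1 within a library is changed by no scaling, but it keeps the GC trend. It was 0.112, 0.218 and 0.124 in controls and 0.957, 0.493 and 0.760 with Oligonol. The log2 difference of this ratio, picked after values were seen, was 2.30, and 1.15 with the GC trend removed. The non-enzyme scaffolds were also mixed. AIMP2 fell (6.33 ± 1.45 to 4.17 ± 0.497 CPM, log2 fold change -0.60, adjusted p = 0.0445), AIMP1 stood at 0.91 (adjusted p = 0.0504) and EEF1E1 at 0.49 (adjusted p = 0.0592), and without the GC trend all 3 stood below 0 (-0.45, -0.15 and -0.48) and none passed.

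The subunits of the cytosolic phenylalanyl enzyme, which assemble in equal number, went opposite ways. FARSA (chromosome 19, 12922479 to 12934037) was at 22.0, 26.2 and 24.9 CPM in controls and at 9.33, 15.1 and 10.3 with Oligonol (log2 fold change -1.08, SE 0.24, adjusted p = 0.0118). FARSB (chromosome 2, 222566899 to 222656092) was at 0.179, 0.194 and 0.175 CPM in controls and at 0.534, 0.467 and 0.490 with Oligonol (1.42, SE 0.32, adjusted p = 0.0115). Both pairs of groups lay apart. Their GC contents are 61.8% and 41.6%, near the ends of the members' range. Within a library there were 131, 124 and 128 FARSA estimated counts to each of FARSB in controls and 17.3, 32.6 and 20.4 with Oligonol. Oligonol library 2, whose GC content lay nearest to the controls, had the highest ratio of its group. Without the GC trend the subunits stood at -0.16 (adjusted p = 0.384) and 0.52 (adjusted p = 0.521), and FARSB's rounded value in each control library was the same 3 counts.

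Of the other cytosolic and dual-compartment genes, TARS3, NARS1, TARS1 and GARS1 rose and VARS1 fell. TARS3, a second threonyl enzyme beside TARS1 (chromosome 15, 101653596 to 101724473), was at 0.596, 0.647 and 0.409 CPM in controls and at 1.42, 1.48 and 1.27 with Oligonol. Its log2 fold change of 1.33 (SE 0.27, adjusted p = 0.00958) became 0.71 (adjusted p = 0.119) without the GC trend, the highest value of any member in that fit. TARS1 went from 3.04 ± 0.295 to 5.34 ± 1.21 CPM and NARS1, the asparaginyl enzyme, from 2.92 ± 0.720 to 5.19 ± 0.299, and without the GC trend their values were 0.10 and 0.15. VARS1 (chromosome 6, 31777518 to 31795752) was at 16.1, 13.1 and 12.6 CPM in controls and at 6.44, 8.79 and 6.83 with Oligonol, which became a log2 fold change of -0.06 without the GC trend, from -0.92 (SE 0.21, adjusted p = 0.0117) with it.

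Of the 2 genes that serve both compartments, GARS1 rose and KARS1 did not pass. GARS1, the glycyl enzyme, was at 4.65, 5.95 and 5.49 CPM in controls and at 7.88, 7.66 and 7.52 with Oligonol, with no overlap (log2 fold change 0.52, SE 0.17, adjusted p = 0.0354). Its value turned to -0.20 (adjusted p = 0.392) once the GC trend was removed. KARS1, the lysyl enzyme, was at 4.65, 6.86 and 6.20 CPM in controls and at 8.87, 6.57 and 8.13 with Oligonol (adjusted p = 0.133, and -0.07 without the GC trend), and Oligonol library 2 lay within the control range. The remaining cytosolic genes AARS1, CARS1, SARS1, WARS1, YARS1 and HARS1 had log2 fold changes between 0.06 and 0.41 and did not pass, at GC contents of 48.9 to 53.2%. Their values with the GC trend removed ran from -0.08 in YARS1 to 0.59 in HARS1, and CARS1, the cysteinyl enzyme, stood at 0.43 (adjusted p = 0.0848). HARS1, the histidyl enzyme, was 0.41 (adjusted p = 0.0725) and, unlike the genes of low GC, no smaller without the GC trend (0.59, adjusted p = 0.0701).

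Among the 16 mitochondrial enzymes 2 rose and 4 fell, with a median of -0.17 against 0.41 for the 20 cytosolic and dual-compartment genes, of which 8 rose and 3 fell. Over all tested genes 26% rose and 23% fell. The median GC content of the sets was 52.1% and 47.9%. Without the GC trend their medians were -0.14 and 0.13, and the difference between the sets was not tested. IARS2 (chromosome 1, 220094132 to 220148041), the mitochondrial isoleucyl enzyme, was at 1.79, 2.46 and 1.81 CPM in controls and at 4.68, 4.35 and 4.81 with Oligonol (log2 fold change 1.19, SE 0.19, adjusted p = 0.00696). It begins 47601 bases beyond the end of EPRS1, and these neighbours, with GC contents of 41.2% and 41.1%, both rose. RARS2, the arginyl enzyme (chromosome 6, 87513459 to 87590028), was at 1.67, 2.26 and 1.75 CPM in controls and at 4.94, 3.27 and 4.47 with Oligonol (1.16, SE 0.23, adjusted p = 0.00895). Neither group pair overlapped, and the values without the GC trend were 0.26 for IARS2 (adjusted p = 0.311) and 0.20 for RARS2 (adjusted p = 0.370).

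The mitochondrial genes that fell were VARS2, SARS2, AARS2 and TARS2. VARS2, the valyl enzyme (chromosome 6, 30914205 to 30926459), was at 4.17, 5.63 and 5.08 CPM in controls and between 2.03 and 2.76 with Oligonol (log2 fold change -1.11, SE 0.20, adjusted p = 0.00817). SARS2, the seryl enzyme (chromosome 19, 38915266 to 38930763), was at 4.17, 3.75 and 4.38 CPM in controls and at 2.06, 2.25 and 1.58 with Oligonol (-1.06, SE 0.19, adjusted p = 0.00817). AARS2, the alanyl enzyme, went from 3.75 ± 0.406 to 1.91 ± 0.470 CPM and TARS2, the threonyl enzyme, from 4.79 ± 0.486 to 3.23 ± 0.200. All 4 had groups that lay apart and a GC content of at least 54.9%. Without the GC trend they stood between -0.31 (VARS2, adjusted p = 0.186) and -0.12 (SARS2, adjusted p = 0.700). HARS2, LARS2, YARS2 and MARS2 lay between -0.06 and 0.06. The other 6 did not pass either: NARS2 was 0.64 (adjusted p = 0.0585), PARS2 -0.73 (adjusted p = 0.0681), EARS2 -0.50 (adjusted p = 0.0589), FARS2 -0.33, WARS2 -0.22 and CARS2 -0.13. After removal of the GC trend NARS2 (GC 42.9%) turned to -0.21, EARS2 (57.9%) to 0.23 and CARS2 (55.3%) to 0.36, while PARS2 was -0.39, FARS2 -0.16 and WARS2 -0.81, none past the threshold. HARS2 shares 108 bases with HARS1, which is transcribed the opposite way.

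The cytosolic and mitochondrial enzymes of an amino acid can be compared within each library, where scaling cancels. The 13 pairs compared were those whose symbols differ only in a final 1 or 2. Glutamate, proline and phenylalanine were not paired, which leaves out EPRS1, FARSA and FARSB and the mitochondrial EARS2, PARS2 and FARS2. TARS3 was not paired either. In 10 of the 13 pairs the mean log2 ratio of cytosolic to mitochondrial estimated counts was higher with Oligonol, and the median difference was 0.30. LARS1 to LARS2 went from 0.98 ± 0.33 to 2.44 ± 0.19, TARS1 to TARS2 from -0.66 ± 0.05 to 0.70 ± 0.35, SARS1 to SARS2 from 0.46 ± 0.22 to 1.60 ± 0.29 and AARS1 to AARS2 from 0.49 ± 0.12 to 1.56 ± 0.27. In these 4 pairs no Oligonol library overlapped the controls, and the GC content of the cytosolic less the mitochondrial transcript was -6.23 to -11.6 percentage points. For threonine the order itself changed: TARS2 had the higher estimated count in every control library and TARS1 in every Oligonol library. The GC contents of TARS2 and TARS1 are 54.9% and 44.6%. In 2 pairs the groups lay apart the other way: MARS1 to MARS2 went from 5.78 ± 0.22 to 5.01 ± 0.36 and IARS1 to IARS2 from 0.51 ± 0.22 to 0.26 ± 0.06. Across the 13 pairs, which share libraries, Spearman's rho of the difference with the GC difference was -0.64. With the GC trend removed the difference was still above 0 in 10 of 13 pairs, with a median of 0.24 and a rho with the GC difference of 0.01. The 4 pairs then stood at 0.52 (LARS1), 0.24 (TARS1), 0.09 (SARS1) and 0.48 (AARS1). The highest were WARS1 to WARS2 at 0.96, with WARS2 on roughly 15.6 to 35.1 reads per library, and HARS1 to HARS2 at 0.67. Below 0 lay RARS1 to RARS2 (-0.48), MARS1 to MARS2 (-0.18) and IARS1 to IARS2 (-0.11).

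**Figure D3:**
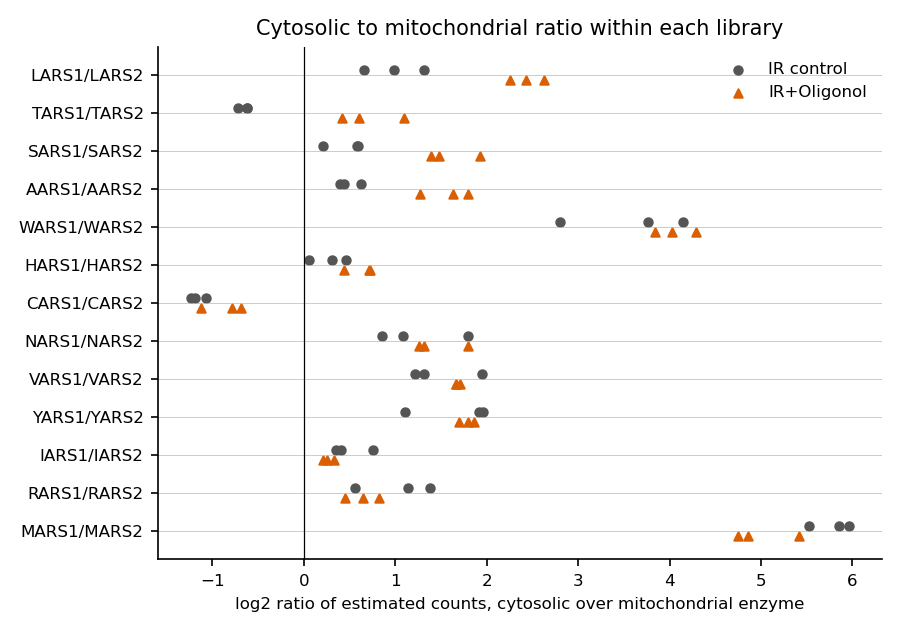
Log2 ratio of the estimated counts of the cytosolic to the mitochondrial enzyme in each of the 6 libraries, for 13 amino acids, ordered by the difference between groups. LARS1/LARS2, TARS1/TARS2, SARS1/SARS2 and AARS1/AARS2 sit higher in all Oligonol libraries (orange triangles) than in all controls (grey circles).

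Direction followed GC content within the family. The 10 members that rose had transcript GC contents of 41.1 to 45.3% and the 7 that fell 53.7 to 61.9%, and none of the 13 members between passed. Log2 fold change and GC had a Spearman's rho of -0.90 across the 36 members, which all come from the same libraries, and of -0.85 across 11719 tested protein-coding genes. The members followed genes of like GC: the 6 members of 40.3 to 42.7% had a median of 1.31 against 1.01 for the 1172 coding genes of that range, and the 3 members of 59.3 to 62.4% had -1.06 against -0.94. With the trend removed, 16 members lay above 0 and 20 below, and the rho was -0.27. What set the GC content of the libraries was not tested.

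**Figure D4:**
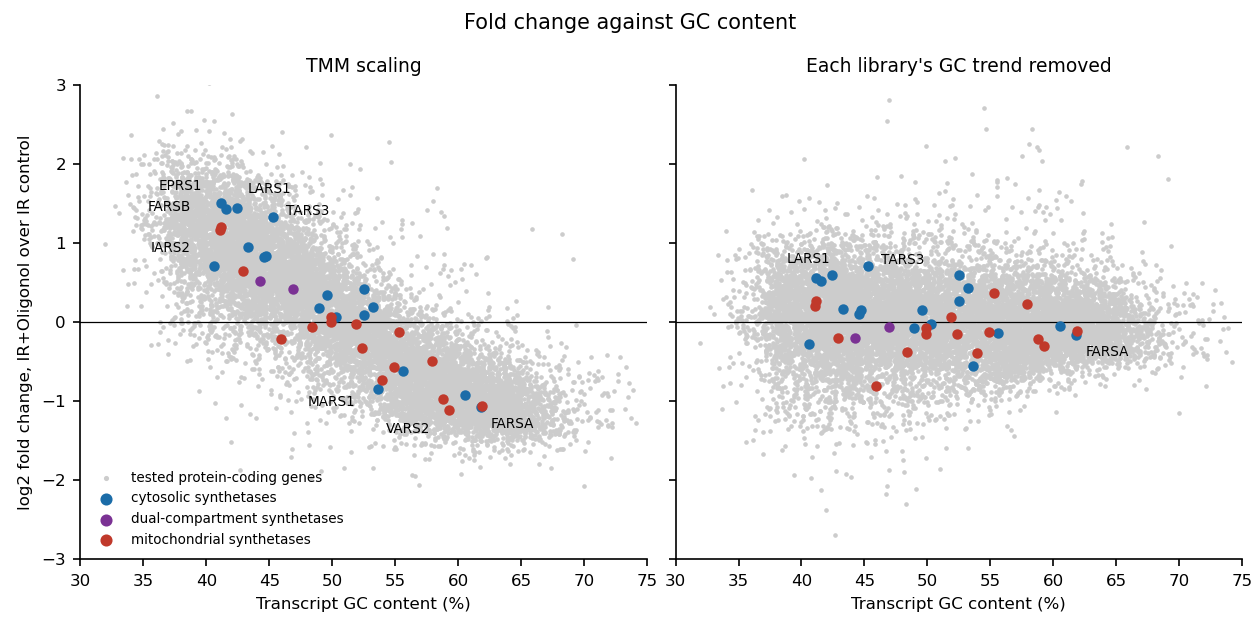
Log2 fold change against transcript GC content for tested protein-coding genes (light grey) and synthetases (coloured by compartment), under TMM scaling (left) and with each library's GC trend removed (right). The axis ends at 3 in both directions, which leaves out 5 genes on the left and 2 on the right. On the left the synthetases run along the slope of the other genes, and on the right they spread around 0.

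Of the 13 members known as ATF4 targets 6 rose (EPRS1, LARS1, IARS1, NARS1, TARS1 and GARS1) and 2 fell (MARS1 and VARS1), with a median of 0.33. Of the 23 other members 4 rose and 5 fell, and of the 7 among them that are cytosolic or dual-compartment 2 rose and 1 fell, with a median of 0.42. Over all tested genes 26% rose and 23% fell, with a median of 0.15. The difference between the known targets and the other members was not tested. The 7 genes with the promoter element shown above ran from -0.85 in MARS1, through -0.01 in YARS2, 0.08 in AARS1 and 0.18 in CARS1, to 0.82 in TARS1, 0.83 in NARS1 and 0.95 in IARS1. Transcript GC was 43.3 to 44.7% in IARS1, NARS1 and TARS1, and 49.9 to 53.7% in YARS2, AARS1, CARS1 and MARS1. With the GC trend removed, AARS1, CARS1, IARS1, NARS1 and TARS1 lay between 0.10 and 0.43. MARS1 was then -0.56 and YARS2, whose element reads TGATGGAA, -0.15, and none of the 7 passed. In that fit the median was 0.15 for the 13 known targets and -0.07 for the 7 other cytosolic or dual-compartment members.

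The values of ATF4 and its targets outside the family lay mostly below 0, as did those of coding genes of like GC. Of 18 tested, 2 rose and 9 fell, beside 26% and 23% of all tested genes. Their median was -0.64 and their median GC 56.4%. Among the 1172 coding genes with a GC of 53.4 to 56.5%, 17 rose and 430 fell, with a median of -0.46. ATF4 itself was at between 10.4 and 17.7 CPM in controls and between 8.36 and 11.2 with Oligonol (log2 fold change -0.57, adjusted p = 0.0844). ASNS, asparagine synthetase, had 1.69 ± 0.335 CPM in controls and rose to 3.45 ± 0.260 (1.03, SE 0.20, adjusted p = 0.00889). The sestrin SESN2, an inhibitor of mTORC1, fell, with 2.90 ± 0.296 CPM in controls and 1.36 ± 0.209 with Oligonol (-1.10, SE 0.20, adjusted p = 0.00817). Of the eIF2alpha kinases, their substrate and regulators, 6 of 9 rose and 1 fell (median 0.74, median GC 43.4%), among them EIF2S1, which encodes eIF2alpha (1.22, SE 0.19, adjusted p = 0.00675), and EIF2AK4, the uncharged-tRNA sensor GCN2 (0.74, SE 0.17, adjusted p = 0.0125). Among the 1172 coding genes with a GC of 42.7 to 44.9%, 658 rose and 7 fell, with a median of 0.80. Without the GC trend no gene of either list passed, and the medians of the lists were -0.10 and 0.02.

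The cells carried markers of the labelled line. The noradrenergic neuroblast list summed to 279 to 335 CPM in controls and 182 to 246 with Oligonol, with 4 of 14 tested markers lower (0 without the GC trend). Among them TBX2 (-1.10, adjusted p = 0.00870) and HAND1 (-0.77, adjusted p = 0.0208) fell. The mesenchymal list summed to 70.7 to 96.1 and 65.8 to 67.0, with 2 of 9 higher, among them CALD1 (1.45, adjusted p = 0.00774), and TAGLN lower (-1.34, adjusted p = 0.00844). Glial markers summed to at most 2.32 CPM and myeloid markers to at most 1.58 in any library, and OLIG2 and CX3CR1 were at 0 throughout. Over all tested genes 26% rose and 23% fell. The part of these marker shifts in the synthetase values was not tested.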

How the data were processed

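RNA sequencing gave 6 libraries with paired reads of 100 nt. Per the submitters' processing notes, FastQC, kallisto 0.46.1, edgeR and GRCh38.p13 were used, with no role or order given. The authors deposited, for each gene and library, an estimated count and a signal, the deposited signal being 1 constant per library times that count. The estimated counts were not whole. For genes with 1 transcript of 500 to 1500 nt, multiplied by effective length and divided by a fitted scale, 67.6 to 70.1% came within 0.05 of whole reads. The fit chose its own fragment length and scale and is no independent check.

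Estimated counts were rounded, filtered by filterByExpr, TMM-scaled and tested with edgeR 4.0.16 (quasi-likelihood, robust, group as the only term, 2-sided; R 4.3.3), threshold 0.05. SE is implied by the test. For the GC trend, log2 CPM centred on each gene was regressed in every library on GENCODE 29 transcript GC (median over transcripts) with a spline of 5 degrees of freedom. The curve, learned from protein-coding genes, became an offset, which removes any true change that follows GC. Scripts were tested on simulated data. Other scalings, DESeq2 1.42.0, limma-voom (limma 3.58.1), filters, a replicate block and each library left out were tried. No member had values identical to another gene, and 14 synthetase pseudogenes reached at most 2.87 estimated counts. Members and lists were chosen with earlier results of these data known. Library values were given for members past the threshold with groups apart, by smallest p (up to 6 per compartment), the dual-compartment genes and EPRS1, and from each list the 2 smallest p plus ATF4, ASNS, AIMP1, AIMP2 and EEF1E1, except where a gene is not reported here. FARSA, MARS1, HARS1 and the ratios of FARSA to FARSB and LARS1 to MARS1 were added after values were seen.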

Additional observations from a re-analysis of the deposited data

How the results depend on the processing

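The main counts were 8 cytosolic or dual-compartment genes higher and 3 lower, and 2 mitochondrial genes higher and 4 lower. They became 17, 0, 11 and 0 with library totals, 1, 0, 0 and 0 with the GC trend removed, and 0 in all 4 with that removal plus a replicate block or with any library also left out (edgeR, with 5 to 7 members then at an unadjusted p under 0.05). In 5 of these 7 fits no gene at all passed, so these zeros say nothing about the members. Leaving out each library with the GC trend kept gave 2 to 7, 0 to 4, 0 to 2 and 0 to 6, lowest without IR control 3. The replicate block alone left 9 members higher and 6 lower, losing GARS1 (adjusted p = 0.0764) and TARS2 (adjusted p = 0.0620). Deviations of same-numbered libraries correlated at 0.0870, -0.00874 and -0.147, and those of different number at -0.186 to 0.191. With 3 libraries per group these values cannot show whether the numbers pair them. With library totals the sign turned for 16 members: PARS2 (0.64) and WARS2 (1.15), called in neither fit, AARS2 (0.38), CARS2 (1.27), EARS2 (0.90), FARSA (0.26), FARS2 (1.11), LARS2 (1.34), MARS1 (0.46), MARS2 (1.30), QARS1 (0.69), SARS2 (0.31), TARS2 (0.82), VARS1 (0.41), VARS2 (0.25) and YARS2 (1.37). Without the GC trend 10 members changed sign, 9 of them uncalled in both fits. The called one was GARS1 (-0.20, -0.20 with the replicate block, -0.31 to -0.14 with a library left out, -0.18 without control 2). TARS1 also turned without Oligonol 1 (-0.0182) and VARS1 without control 1 (0.0716). The YARS1/YARS2 difference was -0.15 without control 2 and up to 0.28 without control 1. The cause was not tested. Under RLE and upper-quartile scaling, protein-coding genes only, DESeq2, limma-voom and both filters, these 4 counts stayed within 1.5 times.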

Other observations

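Genes that act on tRNAs before and after charging went in both directions, beside 26% of all tested genes higher and 23% lower. Of 29 tested tRNA modification enzymes 10 rose and 11 fell (median log2 fold change 0.49, against 0.15 over all tested genes), among them the methyltransferase TRMT1, which fell from 4.62 ± 0.596 to 2.20 ± 0.424 CPM (-1.08, SE 0.20, edgeR adjusted p = 0.00854). Of 7 tested genes for tRNA ends and proofreading, TRNT1, which adds the CCA end that synthetases charge, rose from 1.91 ± 0.452 to 4.82 ± 1.39 CPM (1.34, adjusted p = 0.0105). TRNT1 kept 1.04 of its log2 fold change without the GC trend (adjusted p = 0.0671). No gene of these lists passed in that fit.

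Translation factors use the charged tRNAs. Of 10 mitochondrial factors 4 rose and 1 fell, with the elongation factor GFM1 at 1.59 (SE 0.24, adjusted p = 0.00657) and GFM2, which recycles ribosomes, at 1.42 (SE 0.26, adjusted p = 0.00833). The gene that fell was TUFM, an elongation factor, at 38.6 ± 2.94 CPM in IR control and 18.9 ± 6.71 in IR+Oligonol (-1.03, adjusted p = 0.0207), named after its values were seen. The list's summed level was 44.9 to 51.5 CPM in controls and 32.3 to 39.3 with Oligonol. Of 7 cytosolic elongation factors none rose and 4 fell, with EEF2, the translocase, at -0.99 (SE 0.28, adjusted p = 0.0236) and EEF1D, part of the exchange factor of eEF1A, at -1.18 (SE 0.32, adjusted p = 0.0198). Over all tested genes 26% rose and 23% fell. The median GC of the 2 lists was 44.0% and 57.0%, and without the GC trend no member of either passed. Of the 4 mitochondrial charging and formylation partners none passed, GATC standing at -0.52 (adjusted p = 0.0753) and MTFMT at -0.63 (adjusted p = 0.0943).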
